A study of Saccharomyces cerevisiae with 4 samples.

Results

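The GAS genes of budding yeast, GAS1, GAS2, GAS3, GAS4 and GAS5, were examined by the gene symbol of their array features. They were 5 of 353 named genes and 10 of 896 features, 2 features per gene in neighbouring rows of the table. Each of the 4 arrays compared a single RNA with itself in 2 colours. This total RNA was from untreated BY4741, a laboratory strain that is haploid and of mating type a, and all arrays form 1 group. The culture medium was YEPD, a rich medium. Cells that had reached an optical density of 0.8 to 1 overnight were set back to 0.2, kept at 24 °C and collected after another 6 h. The labels describe 1 culture and do not say that the arrays came from separate ones. The p-values below therefore set a mean against the spread between arrays, which may be technical.

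The GAS family is one of beta-1,3-glucanosyltransferases held at the cell surface by a GPI anchor. Such enzymes cut inside a beta-1,3-glucan chain and join the freed end to another chain, which lengthens the glucan of the wall. Whether each member has this activity was not examined here. GAS1 is the main such enzyme of growing cells, and GAS5 acts beside it during growth. GAS3 is also transcribed in growing cells. GAS2 and GAS4 are induced in sporulating diploids, where they are needed for the glucan layer of the spore wall. A haploid culture growing in rich medium is not known to use them.

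A ratio of an RNA with itself has no biological difference to report and gives no transcript level. Neither the vegetative or sporulation class of a GAS gene nor the mating type of the cells could therefore be checked from these values. What the arrays do show is how reproducibly each GAS feature returned a ratio of 1, which is a log2 ratio of 0. Values below are log2 ratios after the median of each array was set to 0. The medians before that were -0.058, -0.25, -0.19 and -0.24 on arrays 1 to 4. Which dye is the numerator was unknown, so "higher" and "lower" follow the deposited ratio.

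The 5 genes gave very different qualities of measurement, and the difference did not follow the classes. GAS3 and GAS4, one vegetative and one for sporulation, had no missing value. They had the smallest SDs between arrays and the smallest mean duplicate differences of the 5. GAS4 duplicates still differed by 0.238 on array 2. GAS1 spread over more than 3 log2 units, from -1.24 to 2.02. GAS5, a vegetative gene, had duplicate features that disagreed by up to 3.21. GAS2 lay between these extremes.

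GAS1 was at 2.02, 0.54, 1.16 and -1.24 on arrays 1 to 4. It was thus above the array median on 3 arrays and below it on array 4. Its first feature read 2.02, 0.42, 0.86 and -2.02, and its second was missing on array 1 and read 0.66, 1.47 and -0.46 on the other arrays. The second was higher than the first wherever both had a value, so the duplicates followed the same order of arrays but stood apart. The mean was 0.62 ± 1.38 (SD, n = 4), with a 95% interval of -0.92 to 2.17, and it did not pass limma's test against 0 (adjusted p = 0.473). Array 1 counted through a single feature, and without that array the mean was 0.16. Without array 4 it was 1.24, with an adjusted p in limma of 0.124.

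GAS3 was at -0.0085, 0.25, -0.15 and -0.15 on arrays 1 to 4. Its features read -0.00085 and -0.016 on array 1, 0.26 and 0.24 on array 2, -0.20 and -0.096 on array 3, and -0.19 and -0.12 on array 4. No value was missing, and the duplicates stayed within 0.105 of each other. The mean of -0.015 ± 0.189 (SD, n = 4) had a 95% interval of -0.28 to 0.25 and an adjusted p of 0.920 in limma. Array 2 stood higher than the other arrays in both features.

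GAS5 was at -0.77, -1.23, -0.53 and -1.44 on arrays 1 to 4, below the array median on all 4. The mean of -0.99 ± 0.415 (SD, n = 4), a 1.99-fold departure, passed limma's test over all genes (adjusted p = 0.0347). Over all 345 genes tested 24.9% passed, 10.7% higher and 14.2% lower, so a call on 2 of the 5 GAS genes is to be read beside that share. The features behind this mean did not read alike. The first was missing on array 1 and read -1.34, -1.62 and 0.17 on arrays 2 to 4, while the second read -0.77, -1.11, 0.57 and -3.04. On array 3 the first feature was low and the second high, and on array 4 the first was near 0 and the second was the lowest value of any GAS feature. Averaging them gave -0.53 and -1.44 on those arrays, which are closer together than the values of either feature.

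GAS2, of the sporulation pair, was at 0.76, 0.42, -0.41 and -0.32 on arrays 1 to 4. Arrays 1 and 2 were above the array median and arrays 3 and 4 below it. The first feature was missing on array 1 and read 0.36, -0.30 and -0.47 on the other arrays. The second read 0.76, 0.48, -0.52 and -0.17, so both features changed sign between the same arrays. The mean was 0.11 ± 0.572 (SD, n = 4), with a 95% interval of -0.54 to 0.77 and an adjusted p of 0.763 in limma. Its sign depended on the scale, being -0.071 on the values as deposited, and on array 1, without which it was -0.10.

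GAS4, the other sporulation gene, was at 0.23, 0.54, 0.46 and 0.56 on arrays 1 to 4. All 8 of its feature values lay above the array median. The first feature read 0.27, 0.42, 0.45 and 0.61 and the second 0.18, 0.66, 0.46 and 0.51. The mean of 0.45 ± 0.155 (SD, n = 4), a 1.36-fold departure with a 95% interval of 0.21 to 0.68, passed limma's test (adjusted p = 0.0372). On the values as deposited it was 0.26 and still passed, at an adjusted p of 0.0492 in limma. With each block of rows of the table centred by itself it was 0.36, with an adjusted p of 0.0433.

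**Figure D1:**
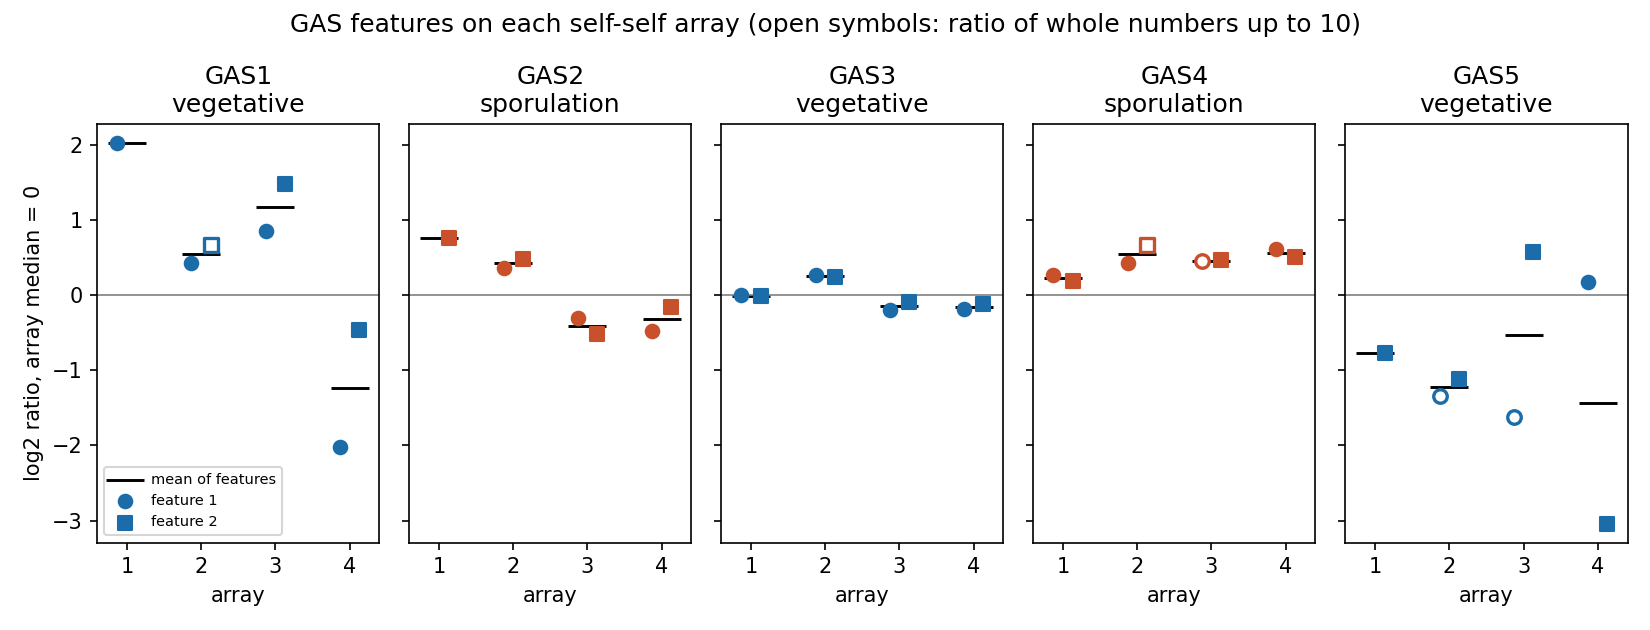
Log2 ratio of both features of each GAS gene on arrays 1 to 4, with the array median at 0 (blue, vegetative genes; orange, sporulation genes; circle, feature 1; square, feature 2; black bar, mean of the features present; open symbol, a ratio of small whole numbers). GAS3 and GAS4 duplicates differ by at most 0.105 and 0.238, GAS1 runs from 2.02 to -2.02 in its first feature, and GAS5 duplicates part on arrays 3 and 4.

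Both calls were lost with 3 arrays, whichever array was left out. The adjusted p-values in limma then ran from 0.0719 to 0.104 for GAS4 and from 0.0759 to 0.0965 for GAS5. With all genes counted, 0, 0, 1 and 0 passed without arrays 1, 2, 3 and 4, against 86 with all 4. The means themselves stayed between 0.41 and 0.52 for GAS4 and between -1.14 and -0.84 for GAS5.

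Testing each feature by itself separated the 2 calls. Both GAS4 features passed limma's test over 691 features, at 0.44 ± 0.141 with an adjusted p of 0.0387 and 0.45 ± 0.201 with an adjusted p of 0.0452 (SD, n = 4). Of all 691 features 157 passed, 68 higher and 89 lower. Neither GAS5 feature did. The first had a mean of -0.93 ± 0.961 (SD, n = 3) with an adjusted p of 0.207, and the second of -1.09 ± 1.49 (SD, n = 4) with an adjusted p of 0.253. The SD of the averaged GAS5 values, 0.415, was smaller than that of either feature. Of 84 called genes with both features tested, 53 had both features called, 28 had 1, and 3 had none. The 3 were GAS5, ECM11 and ECM16, the last pair named after their values were seen. A further fit, added after the data were seen, kept the duplicates as replicates within an array, with a common correlation of 0.818 between duplicates over all genes. In it GAS5 had a mean of -0.995 and an adjusted p of 0.562 in limma, while GAS4 passed with an adjusted p of 0.00957. That fit called 110 of 342 genes, 57 higher and 53 lower, so the GAS4 call is to be read beside that share.

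**Figure D2:**
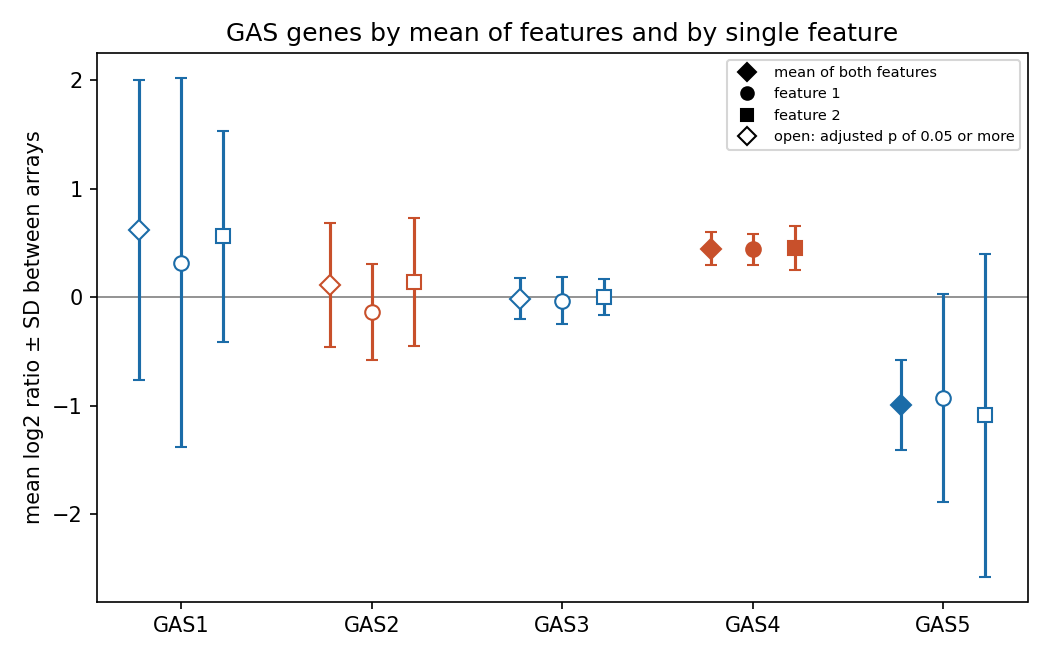
Mean log2 ratio of each GAS gene (diamond, mean of both features; circle, feature 1; square, feature 2) with bars for the SD between arrays (3 or 4 arrays); filled symbols had an adjusted p under 0.05 in limma. GAS4 is filled in all 3 forms, and GAS5 only as the mean of its features.

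Differences between duplicates were also tested, as the first minus the second feature on each array. No gene of 319 passed limma's test, which is 0% called, and 15 had an unadjusted p under 0.05. A robust fit also called 0, with 14 at that unadjusted level. GAS1 had the smallest p of the family, with differences of -0.24, -0.62 and -1.56 on arrays 2 to 4. Its mean was -0.81 ± 0.682 (SD, n = 3), with an unadjusted p of 0.0882 and an adjusted p of 0.728 in limma. GAS5 differed by -0.22, -2.18 and 3.21 on the same arrays, so its sign turned and the mean was 0.27 ± 2.73 (SD, n = 3). The differences of GAS2, GAS3 and GAS4 reached at most 0.306, 0.105 and 0.238 in size. The test asks for a difference of 1 sign, so the mean absolute difference is given as well.

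That mean absolute difference was 1.87 for GAS5, and 98.7% of the 319 genes had a smaller one. It was 0.81 for GAS1, with 92.8% of genes smaller, and 0.22 for GAS2, with 73.0% smaller. GAS4 at 0.11 stood at the median of all genes, 0.11, and GAS3 at 0.052 had 16.6% of genes below it. For the SD between arrays the order was not the same. GAS4 had the smallest, 0.155, then GAS3 with 0.189, GAS5 with 0.415, GAS2 with 0.572 and GAS1 with 1.38. The share of the 345 tested genes with a smaller SD was 27.8%, 40.3%, 69.3%, 77.1% and 92.2% in that order. Vegetative and sporulation genes were interleaved in both orders, and GAS5 ranked far higher in duplicate disagreement than in its SD between arrays.

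**Figure D3:**
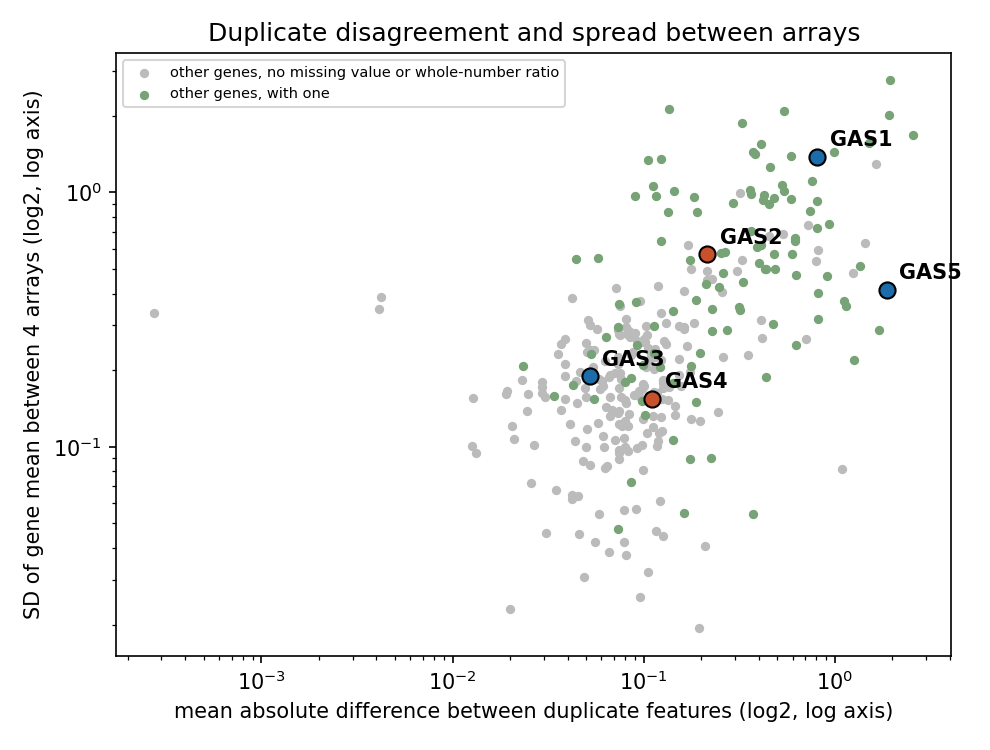
Mean absolute difference between duplicate features (x axis, log2 units, log scale) against the SD of the gene mean between the 4 arrays (y axis, log2 units, log scale), 1 point per gene for 319 genes (grey, no missing value or whole-number ratio; green, at least 1). GAS3 and GAS4 sit within the main cloud, GAS1 at its upper right, and GAS5 at the right edge with an SD of 0.415.

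Some log2 ratios equalled, within 0.00005, that of 1 whole number over another with neither above 10. Over all features 373 of 3297 values did so, or 11.3%, against 0.129% after the values were shifted. Whether these spots were dim was not measured, because channel intensities were not used here. Of the vegetative genes 3 of 22 values were such ratios, or 13.6%, and of the sporulation genes 2 of 15, or 13.3%. Missing values numbered 2 of 24, or 8.33%, and 1 of 16, or 6.25%, beside 8.01% over all features. In both measures the classes lay near each other and near the whole array, on very few values.

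Taken gene by gene, the ratios were unevenly placed. GAS5 held 1 to 3 on array 2 and 2 to 7 on array 3, both in its first feature. Its second feature read 9 to 16 on array 1 and 7 to 18 on array 2, which are whole numbers up to 20. GAS1 held 4 to 3 in its second feature on array 2. GAS4 held 6 to 5 in its first feature on array 3 and 4 to 3 in its second on array 2, although its SD between arrays was the smallest of the family. GAS2 had none up to 10, but 13 to 12 on array 2 and 11 to 18 on array 3 up to 20. GAS3 had none of either size. Up to 20, 17.0% of all values were whole-number ratios, and 0.555% after the shift.

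All 3 missing GAS values were on array 1, in GAS1, GAS2 and GAS5. Array 1 did not lack values as a whole, with 7.37% missing against 9.71%, 8.71% and 6.25% on arrays 2 to 4. The 5 whole-number ratios of the family were on array 2, which held 3, and array 3, which held 2, and these were the arrays with the larger shares of such ratios over all features, 14.5% and 15.8% against 7.11% and 8.10% on arrays 1 and 4. With the whole-number ratios left out, the mean of GAS5 was -0.68 and missed the threshold in limma (adjusted p = 0.221). GAS4 had a mean of 0.43 and passed, with an adjusted p of 0.0304. In that setting 90 of 328 genes passed, 37 higher and 53 lower.

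Of the vegetative genes 7 of 22 feature values lay beyond 2-fold, and of the sporulation genes 0 of 15. Over all features 445 of 3297, or 13.5%, lay beyond 2-fold. The 7 were not spread over the class, since GAS5 gave 4, GAS1 gave 3 and GAS3 gave 0. This difference between classes was not tested, as 5 genes with 2 features each are too few and features of a gene share their target. Averaged over genes, the vegetative class minus the sporulation class was -0.081, -0.63, 0.14 and -1.07 on arrays 1 to 4, a difference that changed sign.

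In order of mean the genes ran from GAS5 through GAS3, GAS2 and GAS4 to GAS1. By the means of their features, GAS3 exceeded GAS5 by 0.97 ± 0.499 (SD, n = 4) and was higher on 4 of 4 arrays. The array values of the pair then did not overlap, but their single features did. The second GAS5 feature on array 3, at 0.57, and the first on array 4, at 0.17, lay above both GAS3 features there. Every other pair of neighbours in the order of means overlapped in its array means. GAS2 exceeded GAS3 on 2 of 4 arrays, GAS4 exceeded GAS2 on 3 and GAS1 exceeded GAS4 on 2. By the mean of features GAS5 was the lowest GAS gene on arrays 1 to 4, and the highest was GAS1 on arrays 1 and 3 and GAS4 on arrays 2 and 4. Single GAS5 features did not keep that place. On array 3 the second lay above every feature of GAS2, GAS3 and GAS4. On array 4 the first lay above every feature of GAS1, GAS2 and GAS3.

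The family was then set beside other genes of the same wall polymer. Of 10 tested genes for other steps of beta-1,3-glucan synthesis and remodelling, 2 were higher and 0 lower, beside 10.7% higher and 14.2% lower over all genes. With so few genes, no difference from those shares is read from these counts. The list had a median mean of 0.30 and a median SD of 0.252. Over all 345 genes these medians were -0.043 and 0.236, and over the 5 GAS genes 0.11 and 0.415. SPR1, an exoglucanase made during sporulation, was at 1.33, 1.77 and 1.16 on arrays 1, 3 and 4, high on each by the mean of its features. Its duplicates differed by 0.81 on average and by 1.84 on array 3. SPR1 and SCW10, a wall protein related to glucanases, passed limma with adjusted p-values of 0.0347 and 0.0488. SCW10 was at 0.17, 0.34, 0.57 and 0.46 on arrays 1 to 4, with duplicates only 0.049 apart on average. Tested by themselves, 1 of 2 SCW10 features and 2 of 2 SPR1 features passed. The widest SD of that list, 0.703, belonged to GSC2, a catalytic subunit of glucan synthase, at 1.26, 0.37, 0.64 and -0.44. GSC2 thus was highest on array 1 and lowest on array 4, as was GAS1. That was not particular to them, as another gene of the list and genes outside it shared it.

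Of the 2 tested genes for crosslinking glucan to chitin, UTR2 was higher, with 0.28 ± 0.0644 (SD, n = 4) and an adjusted p of 0.0467 in limma. Tested by themselves, 1 of 2 UTR2 features passed. Over all genes the shares were 10.7% higher and 14.2% lower, and no difference from them is read from 2 genes. CRH1 did not pass, at 0.23 ± 0.265 (SD, n = 4), and its duplicates differed by 0.71 on average. That came mainly from array 2, at -2.65, as arrays 1, 3 and 4 had differences of -0.073, 0.063 and 0.054.

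**Figure D4:**
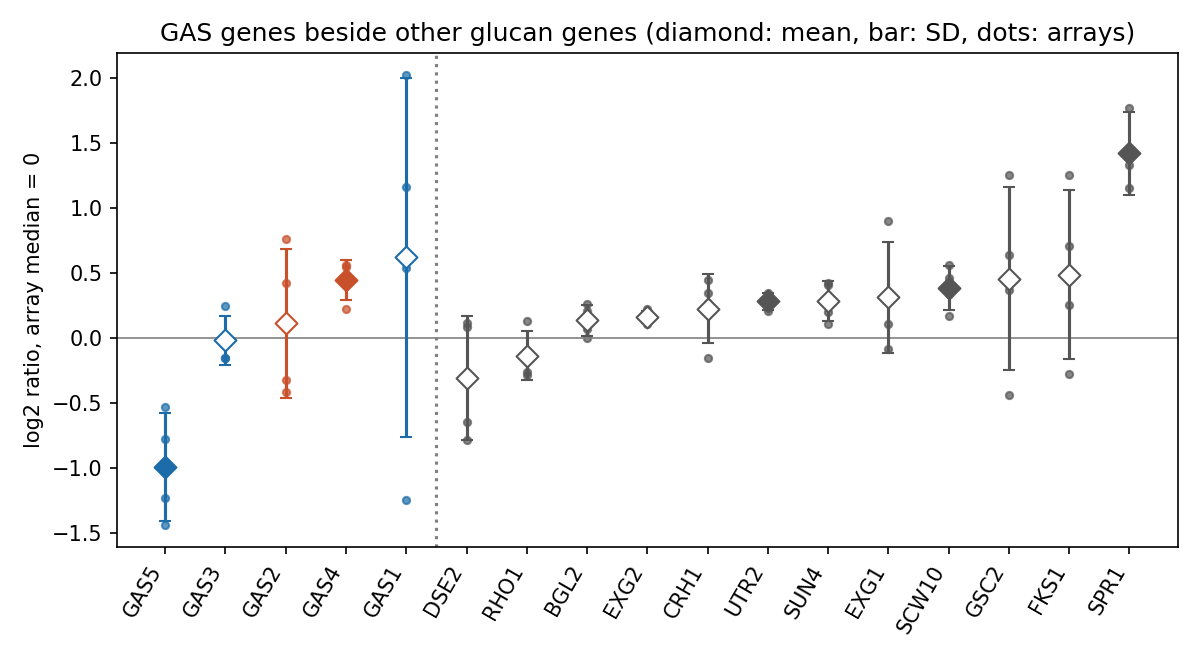
Log2 ratios of the GAS genes (left of the dotted line; blue, vegetative; orange, sporulation) and of 12 other genes of beta-1,3-glucan synthesis, remodelling and crosslinking (grey). Dots are arrays, diamonds means, filled where limma's adjusted p was under 0.05, and bars the SD over 4 arrays (3 for SPR1); the SD of GAS1, 1.38, is the widest shown and GAS5 is the lowest mean.

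Beside GAS2 and GAS4, 7 genes of sporulation and the spore wall were tested, of which SPR1, already counted among the glucan genes, was higher and 0 were lower. Over all genes 10.7% were higher and 14.2% lower, and with so few genes no difference from those shares is read. The 7 had a median mean of 0.75 and a median SD of 0.402. A missing value or whole-number ratio occurred in 6 of these 7 genes, in GAS2 and GAS4, in 2 of the 3 vegetative GAS genes, and in 136 of all 345 genes. The widest of the list was DIT2, which acts in making the dityrosine of the outer spore wall, at 2.31, 2.83, -0.51 and 2.64 on arrays 1 to 4. GAS4, with an SD of 0.155, was as tight as SMK1, a sporulation MAP kinase with an SD of 0.156 and the only gene of the list without such a value.

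The genes most like each GAS gene were sought among 326 others with values on all 4 arrays, by the mean absolute difference of their log2 ratios over those arrays. For GAS4 these were YNL190W at 0.058 and PCM1, an enzyme of chitin precursor synthesis, at 0.10, against a median of 0.59. For GAS3 they were YGP1, a secreted glycoprotein, at 0.076 and SLT2, the MAP kinase of wall integrity, at 0.093, against a median of 0.39. The duplicates of SLT2 differed by -4.13 on array 1, so its mean there comes from features far apart. GAS2 was nearest to ADH1, an alcohol dehydrogenase, at 0.21, and STE7, a kinase of mating signalling, at 0.23, with a median of 0.60. The nearest to GAS5 were YAP1801, which acts in clathrin assembly, at 0.29 and ROT1, an endoplasmic reticulum chaperone, at 0.36 against a median of 1.01. Both had smaller SDs than GAS5, 0.234 and 0.102 against 0.415. For GAS1 the nearest were GSC2 at 0.57 and DFG16, a sensor of alkaline pH signalling, at 0.60 against a median of 1.30. No GAS gene was among the 2 nearest of another.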

How the data were processed

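The values were 1 log2 ratio of 2 channels per feature and array, as deposited by the authors. That they are log2 was read from whole-number ratios among them. Scanner, software, background correction, normalization and genome build are not given in the sources used here, and no coordinates or sequences are printed. The members and lists were chosen with earlier results of these data known. Features were named from the platform annotation, and all 724 with 1 gene matched the R64 gene table by Entrez identifier; 10 had several genes and 162 no name there.

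Each array was centred on its median, features of a gene were averaged, and the 345 genes present on 3 or 4 arrays entered a two-sided test against 0 in limma (lmFit, eBayes), with p-values adjusted over all genes by Benjamini-Hochberg and a threshold of 0.05. Duplicate differences were fitted the same way over 319 genes. The steps were run on simulated data. For the limma fits these were drawn independently for each gene, without effects shared by the genes of an array. That run therefore does not check the share of genes called here. The number of arrays limits the precision. The shift that gave the background of whole-number ratios was averaged over 20 small offsets.

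Named were the 5 GAS genes, the called and the widest members of the glucan, crosslinking and sporulation lists, and the 2 nearest genes of each GAS gene; SMK1, ECM11 and ECM16 were added after their values were seen. Alternatives covered centring, blocks of table rows, quantile normalization, scaling, missing values, whole-number ratios, single features, robust moderation and each array left out. R 4.3.3, limma 3.58.1, Python 3.11.15, pandas 2.3.3 and matplotlib 3.10.9 were used.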

Additional observations from a re-analysis of the deposited data

How the results depend on the processing

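GAS1 kept its direction and did not pass in any of 14 alternatives, with means of 0.16 to 1.24 when an array was left out. GAS4 kept its direction in all 14 and its call in 10. It lost the call with each array left out, at means of 0.41 to 0.52. GAS5 kept its direction in all 14 and its call in 6. It lost the call without whole-number ratios, at -0.68, in its single features, at -0.93 and -1.09, with duplicates as replicates within an array, at -0.995, and with each array left out, at -1.14 to -0.84. GAS2 turned below 0 as deposited, at -0.071, and in its first feature, at -0.14, and ran from -0.10 to 0.29 with arrays left out. GAS3 turned above 0 in its second feature, at 0.0020, and ran from -0.10 to 0.031 with arrays left out. The difference between GAS4 duplicates turned above 0 with quantile normalization, at 0.018, and ran from -0.054 to 0.061 with arrays left out.

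Over all genes 157 of 691 features were called when kept apart, against 86 of 345 genes, and 0 to 1 genes with an array left out. As deposited 21 genes were higher and 91 lower, against 37 and 49 after centring. Duplicate differences gave 0 calls in every setting tried. With whole numbers up to 5, the vegetative and sporulation genes held 2 and 1 such ratios, and with numbers up to 20 they held 5 and 4. No comparison of paired samples was possible because the arrays form 1 group, and only features or genes of the same array were paired. Leaving out an array also removes a degree of freedom, and signal over background is unknown.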
